A study of Lachancea kluyveri with 9 samples.

Results

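A group of 56 gene models, of 5189 in the deposited count table, was high in alpha cells of the budding yeast Lachancea kluyveri and lower in both a and a/alpha cells. Members were chosen by their counts. Each count was divided by its library's size factor, which gives a normalised count, and 10 was added to each group mean. A member had to reach a log2 ratio of at least 0.81 for alpha over a and for alpha over a/alpha, with all 3 alpha libraries above all 6 others. That rule took 1.08% of all models. Of all models, 6.38% met the demand on single libraries and 1.21% met both ratios. Because all 9 libraries chose the members, the levels and ratios of alpha cells are given as descriptions, without tests.

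The a cells were strain yLB76, the alpha cells strain yLB77 and the a/alpha cells strain FDy22, all labelled as wild type and prototroph, with 3 libraries per cell type. Cultures in 10 mL of YPED medium at 30 °C started at an optical density of 0.1 and were harvested between 0.5 and 1. RNA with poly(A) tails was sequenced as single reads of 65 bp from a directional kit, and the libraries are called biological replicates in the column headers. With 1 strain per cell type, strain and cell type cannot be told apart. In such bulk samples, a smaller share of cells that express a gene and less of its RNA per cell cannot be told apart either.

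In Saccharomyces cerevisiae, a relative of this yeast, cell type is set by proteins encoded at the mating-type locus. Alpha cells make an activator, alpha1, which acts with the general factor Mcm1 at the genes specific to alpha cells. Those genes encode the alpha-factor pheromone, the receptor for the pheromone of a cells and a surface protein for cell adhesion in mating. In a/alpha cells the heterodimer of a1 and alpha2 represses the gene of the alpha1 activator, and genes specific to alpha cells are not activated. The files pair no gene names with the models, so it was not known which of the 56 correspond to these genes, and members are given by chromosome and position in the deposited table. The lists of S. cerevisiae genes for alpha, a, haploid and a/alpha cells matched 0 models, so the labelled cell types could not be checked against named markers.

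Libraries of 8 cultures held 6379488 to 10776548 counts, and a/alpha replicate 1 held 743244. There, 1 count equals a normalised count of 8.44, against 0.577 to 0.926 in the other libraries. A level of 3 counts, the limit that a count of 0 allows, is 25.3 in that library and at most 2.78 in the others. Values of low members in a/alpha replicate 1 are therefore coarse. Such limits cover counting error only.

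The members ran from models with very unequal levels to many with about 2-fold differences. In 7 members both ratios were at least 3, and the smaller of the 2 ratios ran from 3.10 to 296. In the other 49 the smaller ratio was at most 2.69. This division was made after the values were seen and marks no break between groups. The wider step lay between the sixth member, at 5.47, and the seventh, at 3.10. Over all 56, the median normalised count of alpha cells was 1180, that of a cells 336 and that of a/alpha cells 381, where the medians over all models were 287, 296 and 281. The median ratio was 2.27 for alpha over a and 2.04 for alpha over a/alpha. The mean level of a cells was above that of a/alpha cells in 16 members of 56, and in 2648 of all 5189 models.

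**Figure D1:**
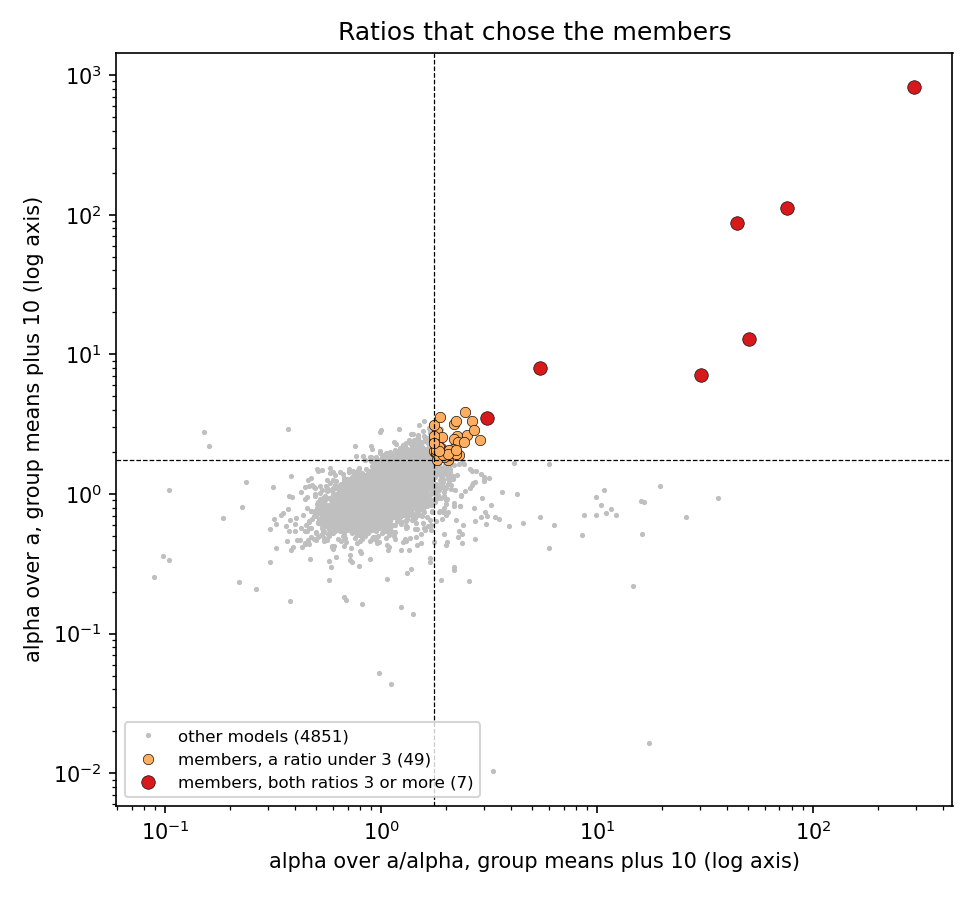
Ratios of group means (plus 10) of the normalised counts, on log axes. Alpha over a/alpha is on the horizontal and alpha over a on the vertical axis. Each point is 1 gene model and the dashed lines mark the limit of the rule. The first 6 members, with a smaller ratio of 5.47 or more, lie apart from the rest. The seventh, at 3.50 for alpha over a and 3.10 for alpha over a/alpha, lies beside the members that follow it.

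The first member by the smaller ratio was a single-part model of 375 bp on the plus strand of chromosome A, at 472961–473335 (identifier augustus_masked-SAKL0A-processed-gene-4.25). Its normalised count was 55232, 73151 and 95345 in the 3 alpha libraries, 88.2, 72.7 and 82.5 in the a libraries, and 144, 500.5 and 83.0 in the a/alpha libraries. The alpha libraries lay far above all others, and among the others a/alpha replicate 2 was the highest. Group means (plus 10) differed 818-fold between alpha and a cells and 296-fold between alpha and a/alpha cells. This model alone took 1.05% ± 0.186 (SD, n = 3) of all counts in alpha cells, and per kb of coding length it was in place 7 of the 5189 models there.

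The second member was a model of 2058 bp on the plus strand of chromosome G, at 1048341–1050398 (identifier augustus_masked-SAKL0G-processed-gene-10.110). Normalised counts were 19227, 15298 and 13671 in the alpha libraries, 162, 116 and 123 in those of a cells, and 160, 315 and 131 in those of a/alpha cells. As in the first member, the highest of the 6 low libraries was a/alpha replicate 2, and the low levels were well above the limit of 3 counts. The ratios were 112 for alpha over a and 75.8 for alpha over a/alpha.

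The third and the seventh member adjoined on chromosome C, on opposite strands and 192 bp apart. The model at 475936–477402, of 1467 bp on the minus strand, had 3048, 2123 and 1955 normalised counts in the alpha libraries, 28.0, 12.9 and 10.6 in those of a cells, and 16.9, 87.2 and 27.0 in those of a/alpha cells. It was the lowest of the 7 outside alpha cells, and its value in a/alpha replicate 1 was 2 counts. Its ratios were 87.7 and 44.4. The neighbour at 474022–475743, of 1722 bp on the plus strand, had 418, 466 and 341 in the alpha libraries, 155, 84.0 and 89.4 in those of a cells, and 101, 130 and 143 in those of a/alpha cells. With ratios of 3.50 and 3.10 it was far closer between cell types than the model beside it. The next models outward, at 473107 and 477986, had ratios of 1.05 and 0.98 for alpha over a.

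Another pair, the fourth and the fifth member, overlapped by 166 bp on chromosome E on opposite strands. The minus-strand model at 389294–389977, of 684 bp, had 3507, 4313 and 4318 normalised counts in the alpha libraries, 227, 404 and 285 in those of a cells, and 42.2, 80.8 and 88.3 in those of a/alpha cells. The plus-strand model at 388024–389459, with 2 coding parts and 1263 bp, had 2020, 2378 and 2140 in the alpha libraries, 200.3, 363 and 323 in those of a cells, and 16.9, 88.3 and 82.4 in those of a/alpha cells. Both showed 3 separate levels, with alpha cells highest, a cells between and a/alpha cells lowest, and no library of one cell type overlapped another. In a/alpha replicate 1 the values were 5 counts for the minus-strand and 2 counts for the plus-strand model. The second is under the limit of 3 counts. The ratios were 12.9 and 50.4 for the minus-strand model and 7.17 and 30.2 for the plus-strand model.

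The counts of overlapping models on opposite strands may not be separate measurements. Among 30 models lying within the span of a single-part model on the other strand, log2 levels per kb of the inner and outer model were correlated across models with Pearson's r 0.931 and Spearman's rho 0.937. The inner model was the higher of the pair per kb in 28 of 30, with a median ratio of 2.10. The strand setting of the counting is given in the file header, and whether it matches the kit is not stated. The levels of the chromosome E pair are therefore uncertain as 2 separate genes. The same holds for the member at 574801–575139 on chromosome B, of 339 bp, which lies within a 2-part model on the other strand. That outer model had a mean normalised count of 63085 in alpha cells and ratios of 1.78 and 1.28.

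The sixth member was a model of 435 bp on chromosome A, at 631418–631852. Its normalised counts were 706, 805 and 845 in the alpha libraries, 84.9, 84.0 and 97.6 in those of a cells, and 152, 130 and 124 in those of a/alpha cells. Alpha libraries were close to each other and above all others, and a/alpha libraries were all above the a libraries. Ratios were 8.05 and 5.47. The twelfth member, of 384 bp at 630443–630826, lay 591 bp from it and had 130, 138 and 131 in alpha cells against 39.4 to 57.4 in a cells and 25.3 to 49.1 in a/alpha cells.

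**Figure D2:**
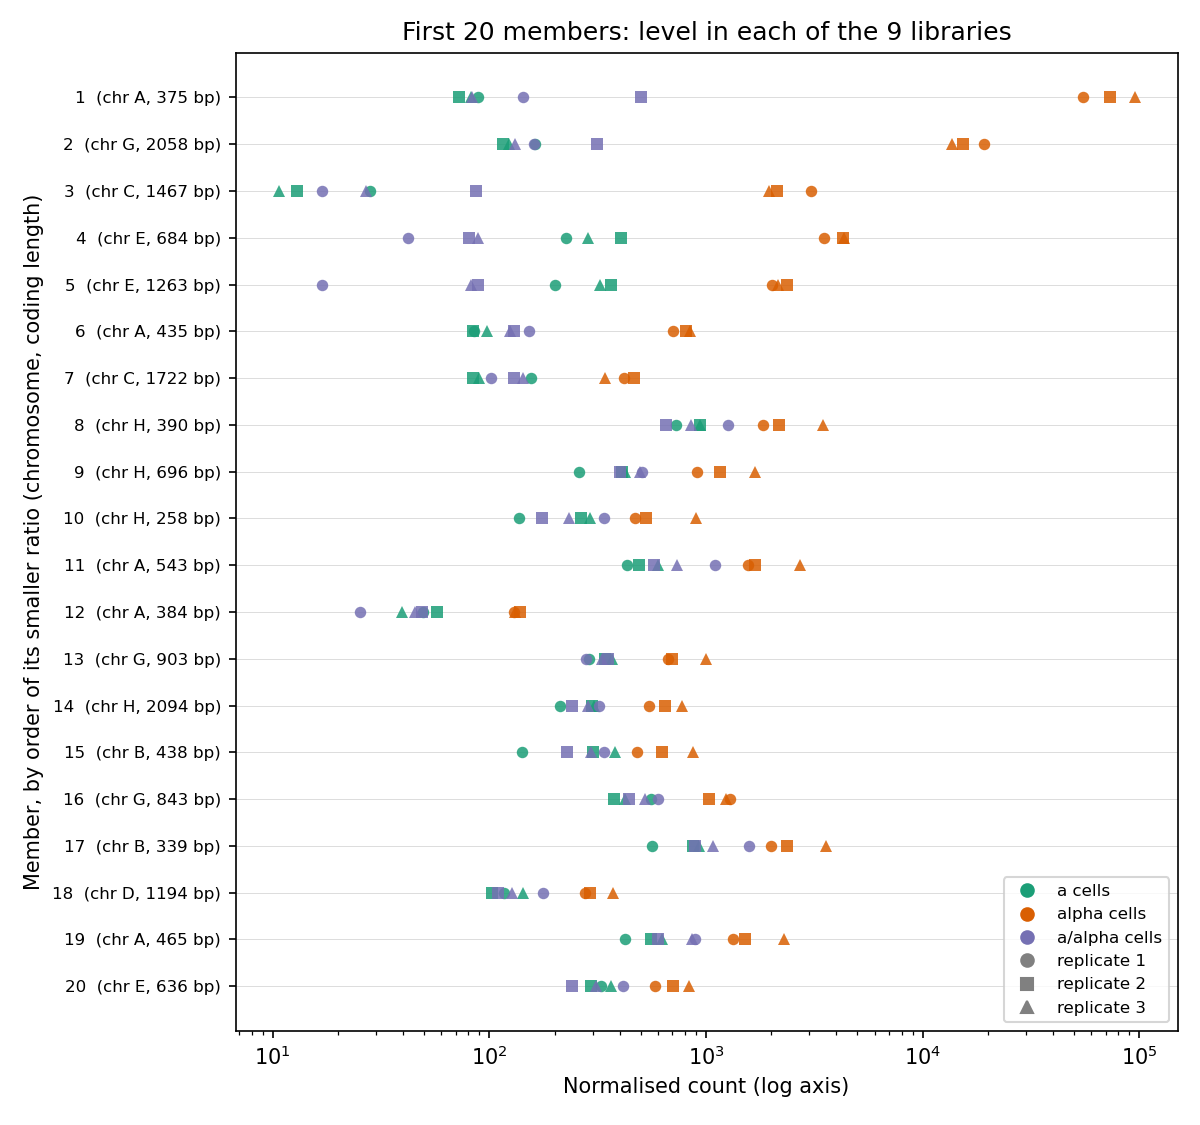
Normalised counts (log axis) of the first 20 members by the smaller ratio, by library. The first 7 have both ratios at least 3. Each point is 1 library, colours mark the cell type and symbols the replicate. In the chromosome A model at 472961 the alpha libraries lie between 55232 and 95345 and the 6 others between 72.7 and 500.5, and in the 2 chromosome E models a cells lie between alpha and a/alpha cells.

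In the fit of all 9 libraries with edgeR, the log2 fold change of alpha against a cells was 9.82 ± 0.65 (SE, n = 3 and 3) for the chromosome A model at 472961. It was 6.89 ± 0.35 for the chromosome G model at 1048341 and 3.71 ± 0.24 for the minus-strand model of the chromosome E pair. Against a/alpha cells the same 3 models had log2 fold changes of 8.15 ± 0.61, 6.24 ± 0.34 and 5.66 ± 0.27. Leaving out a/alpha replicate 2, the library in which the first 3 members were highest outside alpha cells, raised the value to 9.56 for the first, 6.84 for the second and 6.52 for the third (5.47 ± 0.45 with all libraries). The authors' deposited tables seem to rest on more than these 9 libraries, since 3 models with 0 counts in all 9 have a mean signal above 0 there, and their design is not stated. With that limit, in the authors' deposited table the alpha against a/alpha log2 fold changes of the first 3 members were 8.23 ± 0.46, 6.28 ± 0.333 and 5.59 ± 0.47.

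Beyond these 7, the smaller ratio was under 3, and alpha replicates were unequal in many members. The eighth member, of 390 bp at 1852884–1853273 on chromosome H, had 1839, 2180 and 3469 normalised counts in the alpha libraries, 727, 936 and 938 in those of a cells, and 1258, 653 and 852 in those of a/alpha cells. Alpha replicate 3 was the highest library and a/alpha replicate 1 the highest of the others. The eleventh, of 543 bp at 391467–392009 on chromosome A, had 1563, 1677 and 2723 in the alpha libraries, 432, 488 and 602 in those of a cells, and 1106, 577 and 733 in those of a/alpha cells. Within each cell type the libraries stood in the same order in both models.

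Some longer members varied less between alpha libraries. The sixteenth, of 843 bp at 88539–89381 on chromosome G, had 1288, 1029 and 1238 in the alpha libraries, 557, 377 and 421 in those of a cells, and 599, 443 and 524 in those of a/alpha cells. The fourteenth, with 2 coding parts and 2094 bp at 608424–610884 on chromosome H, had 546, 650 and 774 in the alpha libraries, 212, 297 and 304 in those of a cells, and 321, 241 and 287 in those of a/alpha cells. In both, the lowest alpha library lay well above the highest other library.

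The ninth, of 696 bp at 126464–127159 on chromosome H, had 908, 1157 and 1678 in alpha cells against 261 to 423 in a cells and 399 to 506 in a/alpha cells. The tenth, of 258 bp at 389155–389412 on the same chromosome, had 471, 531 and 896 against 137 to 291 and 174 to 338. In these, as in most others, alpha replicate 3 stood above its 2 partners.

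On chromosome A, 2 short members of 465 and 534 bp adjoined, at 70602–71066 and at 71095–71628, 28 bp apart. The longer one had 482, 536 and 745 in alpha cells, and no other library was above 377. The shorter one had 1335, 1508 and 2301 in alpha cells, and a/alpha replicate 1 reached 886. The chromosome B member at 574801, inside another model, had 2003, 2372 and 3578 in alpha cells, and a/alpha replicate 1 reached 1578. In the shorter chromosome A model and the chromosome B model that shallow library was the highest of the 6 others, although it lay below every alpha library. The 4 other named members, on chromosomes B, D, E and G, had smaller ratios of 2.12 to 2.34.

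At the limit of the rule, the smaller ratios of the 3 members just inside were 1.751 for the chromosome G model at 236504, 1.755 for the one at 754885 and 1.759 for the chromosome B model at 445171. The 3 models just outside, with alpha libraries also above all others, had 1.747 (chromosome G at 1316122), 1.746 (chromosome H at 534159) and 1.738 (chromosome G at 471122). No gap separated members from the models below them.

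Members as a whole took 5.60% ± 0.968 (SD, n = 3) of the counts of alpha cells, 2.68% ± 0.459 of those of a cells and 2.45% ± 0.346 of those of a/alpha cells. The first 7 members took 1.42% ± 0.111, 0.0193% ± 0.0021 and 0.0142% ± 0.0062 in the same order. The other 49 took 4.18% ± 0.857, 2.66% ± 0.458 and 2.43% ± 0.351. Thus the other 49 held most of the members' counts in every cell type and changed their share far less than the first 7. Per kb of coding length, 33 members were among the highest 1038 of all models by mean level over the 9 libraries, and 1 was among the lowest 1038. That mean includes the alpha libraries, in which the rule required members to be high. The highest member per kb in alpha cells, of 219 bp at 699515–699733 on chromosome A, had normalised counts of 40392, 57396 and 84649 in the alpha libraries, 21581, 34575 and 37097 in those of a cells, and 34854, 25892 and 26795 in those of a/alpha cells. Its lowest alpha library was close to its highest other library.

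Members were short. Their median coding length was 547.5 bp, against 1257 bp over all models, and 44 of 56 (78.6%) were under 800 bp, against 27.2% of all models. Under 400 bp lay 17 members (30.4%), against 8.52% of all models. The shortness lay with the other 49, whose median was 534 bp with 41 under 800 bp. The first 7 had a median of 1263 bp, and 3 were under 800 bp. Several coding parts were present in 5 members (8.93%), against 13.7% of all models, and 30 members were on the plus strand. All 8 chromosomes held members, from 5 to 10 each. No member lay within 50 kb of the first base of a chromosome or of the end of its last model, where 5.94% of all models lie. The nearest, the chromosome C model at 1198075, was 51126 bp away, just beyond that limit. The first 1 Mb of chromosome C held 4 members (7.14%), against 8.92% of all models.

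Level moved with coding length within libraries of each cell type, in some more than in others. For 363 models under 400 bp with a mean normalised count of at least 20, the log2 level minus its mean over the 9 libraries had a median of 0.07, 0.26 and 0.67 in alpha replicates 1, 2 and 3. It was -0.38, -0.11 and 0.02 in the a libraries and -0.00, -0.27 and -0.12 in the a/alpha libraries. For 1201 models of 2000 bp or more the order was nearly the reverse, with 0.02, -0.12 and -0.18 in alpha cells and 0.22, 0.09 and -0.02 in a cells. Short models were thus highest in alpha replicate 3 and lowest in a replicate 1, while long models were highest in a replicate 1 and lowest in alpha replicate 3.

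**Figure D3:**
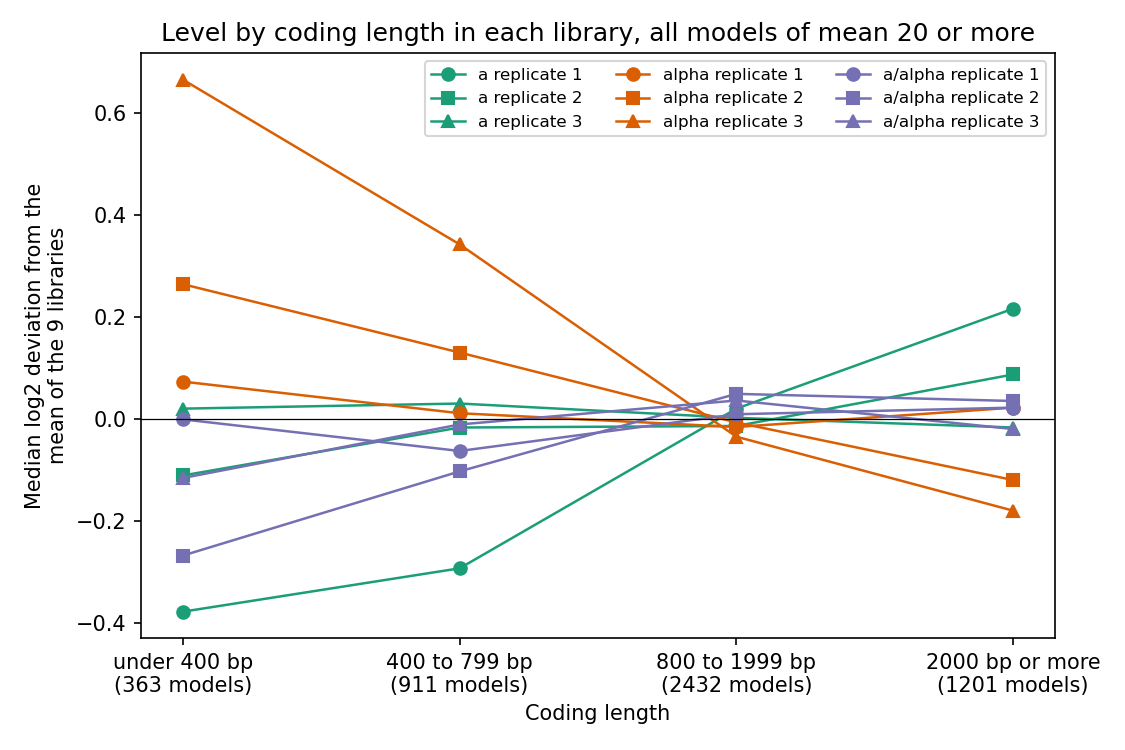
Median over models of the log2 normalised count minus its mean over the 9 libraries, by coding length class, with 1 line per library and colours for the cell type. Models under 400 bp range from -0.38 in a replicate 1 to 0.67 in alpha replicate 3, and models of 2000 bp or more from -0.18 in alpha replicate 3 to 0.22 in a replicate 1.

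The other 49 members followed the same order of libraries. Alpha replicate 3 was the highest alpha library in 45 of 49 (91.8%), against 39.3% of all models, and alpha replicate 1 the lowest in 41 (83.7%, against 43.0%). Of the a libraries, replicate 1 was the lowest in 41 (against 44.0% of all models), and of the a/alpha libraries replicate 1 was the highest in 41 (against 40.4%). Of these 49 members, 41 were under 800 bp, and the shares over all models are not matched for length. The same library values also chose the members. The first 7 members had no such common order, with alpha replicate 3 highest in 3, replicate 1 in 2 and replicate 2 in 2. Among 1230 models under 800 bp that were no members, the median ratio was 1.21 for alpha over a and 1.21 for alpha over a/alpha. For 1199 models of 2000 bp or more it was 0.863 and 0.944. Across 4907 models, which are not independent replicates and share the same libraries, Spearman's rho between ratio and length was -0.398 for alpha over a and -0.305 for alpha over a/alpha.

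With a smooth trend over length removed from each library, a step chosen after the data were seen, 30 models met the rule. Of the 56 members, 23 met it and 33 did not, and 7 further models entered. All 7 first members stayed, with smaller ratios of 217 for the chromosome A model at 472961, 81.1 for the chromosome G model and 3.28 for the chromosome C model at 474022. Of the other 49, 16 stayed. The median smaller ratio over all 49 went from 1.90 to 1.59. All 12 members of 800 bp or more stayed, and 11 of the 44 shorter ones. The differences of the first 7 were therefore present with and without the trend, and most of the small differences among short models were under the limit without it.

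**Figure D4:**
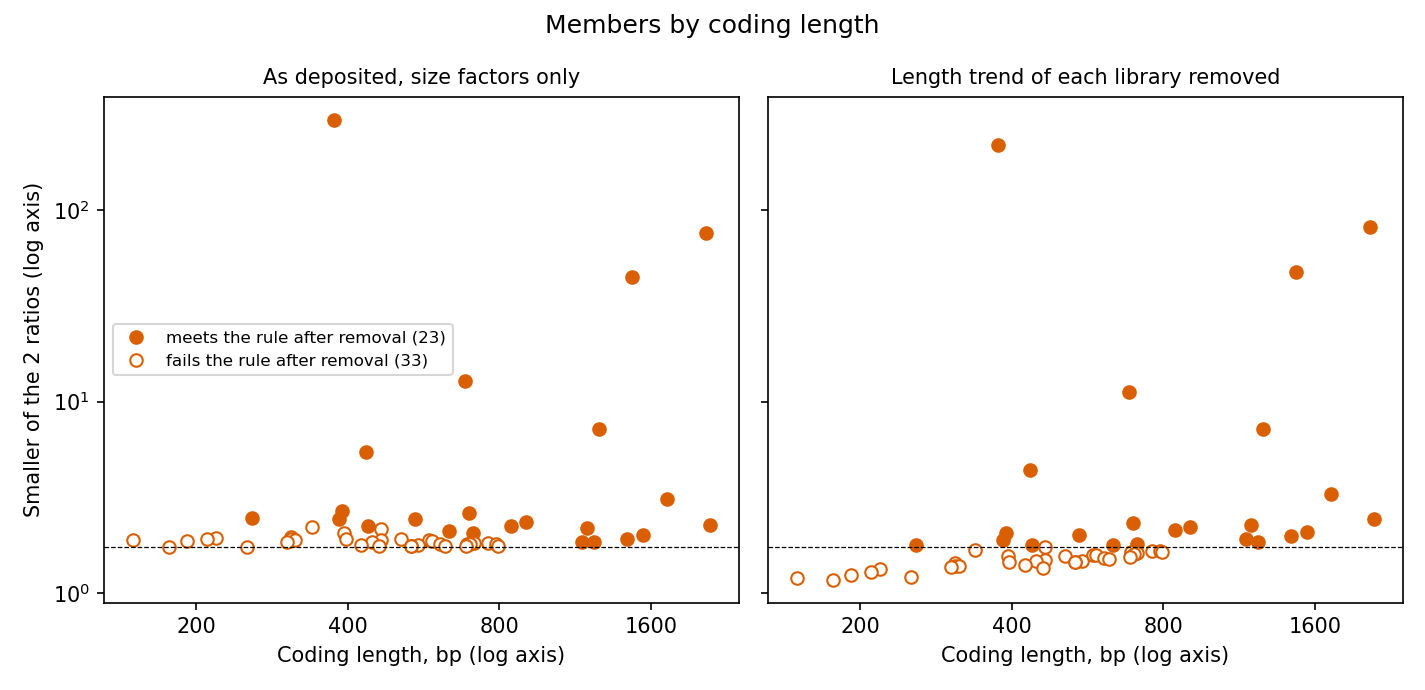
The smaller of the 2 ratios of each member (log axis) against its coding length (log axis), with size factors only on the left and after removal of each library's length trend on the right; filled points meet the rule after removal and the dashed line is the limit of the rule. All 12 members of 800 bp or more remain above the line, while 33 of the 44 shorter members fall below it.

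The rule was also applied to 8 libraries, and the ninth, which the choice had not used, was read for the models found. With alpha replicate 1 set aside, 142 models were found, and in 96 of them (67.6%) that library lay above all a and a/alpha libraries, against 11.0% of all models. The median ratio of that library to the higher of the a and a/alpha means was 1.30. With alpha replicate 2 set aside it was 68 of 70, against 20.2% of all models, with a median ratio of 1.77. With alpha replicate 3 set aside it was 25 of 25, against 26.2%, with a median ratio of 2.96. The a and a/alpha libraries had been chosen to be low in these turns, so the share over all models is not a matched background, and library-wide length trends move with it. The same holds for the turns that set aside an a or a/alpha library, in which the alpha libraries had been chosen to be high. Each a library set aside was below all alpha libraries in 47 of 47 models found for replicate 1 (37.4% of all models), 59 of 60 for replicate 2 (29.0%) and 63 of 67 for replicate 3 (26.5%). Each a/alpha library set aside was below them in 85 of 112 for replicate 1 (37.4%), 39 of 39 for replicate 2 (34.2%) and 56 of 56 for replicate 3 (29.9%). Alpha replicate 1 and a/alpha replicate 1 were thus the libraries whose absence let in the most models. A set of 23 members was found in all 9 turns and included the 7 first members, and 20 of the 23 also met the rule without the length trend.

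The comparison of a with a/alpha cells was not used by the rule, although its libraries were. It shows in which members, lower in both than in alpha cells, a difference between a and a/alpha cells was found. With edgeR's quasi-likelihood test and Benjamini-Hochberg adjustment over 5042 models at 0.05, 7 of 56 members (12.5%) differed, against 12.9% of all models tested, so members did not stand out in number. Higher in a cells were 2 members (3.57%, against 7.32% of all models), and lower in a cells were 5 (8.93%, against 5.61%). The median log2 fold change of a against a/alpha was -0.11 over members and 0.02 over all models. Without a replicate 1 the members' median was 0.01, with 30 members above 0 and 26 below, and without a/alpha replicate 2 it was -0.22. Of the 7 first members 5 were called, and of the other 49, 2.

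Both models of the overlapping chromosome E pair were higher in a cells. The log2 fold change was 1.95 ± 0.25 (adjusted p = 1.87e-04) for the minus-strand model and 1.95 ± 0.29 (adjusted p = 7.26e-04) for the plus-strand model. Over 17 alternative fits they ran from 1.71 to 2.13 and from 1.79 to 2.16, and were called in all. In the authors' deposited table, which seems to hold further libraries, both were called higher in a cells.

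Called lower in a cells were the first, the third and the sixth member. The chromosome A model at 472961 had -1.67 ± 0.50 (adjusted p = 0.0430) and the chromosome C model at 475936 had -1.65 ± 0.49 (adjusted p = 0.0417). They were called in 9 and 10 of 17 alternatives. Without a/alpha replicate 2 the values were -0.26 (adjusted p = 0.692) and -0.59 (adjusted p = 0.508). Both calls were also lost, at log2 fold changes of -1.36 or beyond, with DESeq2 (adjusted p = 0.0853 and 0.114), in the fit of the 2 groups alone, and without a replicate 2, a replicate 3, alpha replicate 2 or a/alpha replicate 1. The chromosome A model at 631418 had -0.55 ± 0.17 (adjusted p = 0.0463), with every a/alpha library above every a library, and was called in 7 of 17 alternatives, over which it ran from -0.62 to -0.49.

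Lower in a cells as well were 2 of the other 49. The chromosome G model at 1026269–1026856 had 1017, 1014 and 1185 normalised counts in a cells and 2499, 1554 and 2023 in a/alpha cells, with 3468, 3034 and 4960 in alpha cells. It fell by 0.89 ± 0.21 on the log2 scale (adjusted p = 0.0156). The chromosome B model at 445171–445794 fell by 0.79 ± 0.22 (adjusted p = 0.0319), with 364, 364 and 455 in a cells and 945, 551 and 629 in a/alpha cells. Of the 5 members called lower, 4 were also called lower in the authors' deposited table, and the chromosome A model at 631418 was not (adjusted p = 0.302). The chromosome G and B models were called in 14 and 13 of 17 alternatives, and in both every a/alpha library lay between the a and the alpha libraries.

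The second and the seventh member did not pass the test. The chromosome G model at 1048341 had a log2 fold change of -0.65 ± 0.30 (adjusted p = 0.178) and the chromosome C model at 474022 had -0.25 ± 0.25 (adjusted p = 0.562). A missed threshold does not show equal levels. The level outside alpha cells was shown to differ between a and a/alpha cells in every alternative for the chromosome E pair alone.

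**Figure D5:**
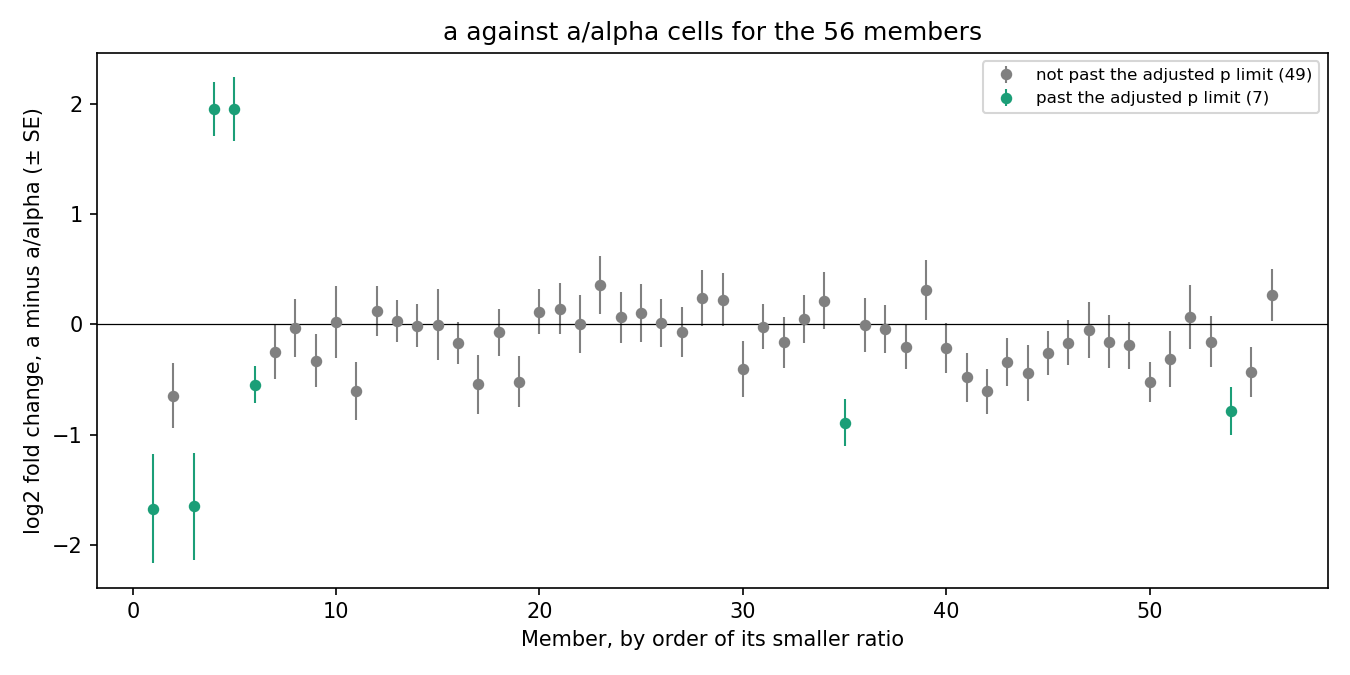
Log2 fold change of a against a/alpha cells from edgeR for the 56 members, with standard errors as bars. Colour marks the 7 with an adjusted p of at most 0.05. The 2 chromosome E models lie at 1.95, above 0, and the 5 members called lower in a cells lie between -1.67 and -0.55.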

How the data were processed

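Poly(A) RNA from 9 cultures was counted by the authors. Per the file headers, the deposited counts are reads over coding parts, made with featureCounts 2.0.1 with strand setting 1, and the table also gives coding length in bp. For the genome build, the sources used here give none. The authors' deposited tables of comparisons hold p-values, raw and adjusted, beside a log2 fold change, its error, a score of the test and a mean signal, and the submitters' processing notes name DESeq2.

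Here, counts were divided by median-of-ratios size factors from 4997 models. The test of a against a/alpha used edgeR 4.0.16 in R 4.3.3 with all 9 libraries, TMM factors (0.809 to 1.16), the filterByExpr filter (147 models left out) and quasi-likelihood tests, adjusted by Benjamini-Hochberg over all models. Biological variation between libraries was 18.0% (coefficient). Standard errors are the fold change over the root of F, which is approximate. On simulated counts for 5035 models the a against a/alpha test recovered 86.0% of 2-fold and 99.0% of 4-fold changes, with 12 false calls. The simulated counts were drawn independently around a common mean profile, without the length trends of the real libraries. Recovery and false calls in the real data may therefore differ. The length trend was a lowess curve (span 0.3, statsmodels 0.14.6) per library.

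Members and lists were chosen with earlier results of these data known. Named models were the first 20 by the smaller ratio, those at the limit, those called in a against a/alpha, the highest per kb and those that overlap or adjoin. The marker lists matched 0 models and were not run. P-values measure the spread between libraries of a single strain per cell type. Deviations of equally numbered a and alpha libraries were correlated by 0.79, 0.26 and 0.60 across models. The labels state no pairing and unequal numbers were not compared, so whether these numbers pair those libraries is not known. The fit reported used no pairing, and a block by replicate number was an alternative. Alternatives were other size factors, filters, limits and added values, DESeq2 1.42.0, fits of 2 groups, a replicate block, the length trend and leaving out each library.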

Additional observations from a re-analysis of the deposited data

How the results depend on the processing

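The rule found 56 models as given. It found 19 when counts were scaled by library totals, 165 at a ratio limit of 1.5, 23 at a limit of 2 and 30 with the length trend removed, and from 25 (without alpha replicate 3) to 142 (without alpha replicate 1) with a library left out. TMM factors gave 51, adding 1 gave 68 and adding 50 gave 38. The 7 first members were found under all of these. Library totals moved the median log2 ratio of all models by -0.37 for alpha over a and by -0.17 for alpha over a/alpha. Members higher in a than in a/alpha cells numbered 2 under every setting, where 202 to 627 of all models were higher. Members lower in a cells numbered 5. In the fit of the a and a/alpha libraries alone they numbered 2, and at an adjusted p of 0.01 they numbered 0. With a library left out they numbered 0 to 5. The number was 0 without a replicate 2 or a/alpha replicate 1 and 1 without alpha replicate 2. It was 2 without a replicate 3, a/alpha replicate 2 or a/alpha replicate 3. Calls over all models moved too. Lower in a cells were 283 of 5042 models with all libraries, and 88 at an adjusted p of 0.01. Without a replicate 2 there were 96 of 5061, and without a/alpha replicate 1 there were 171 of 5057. With any single library left out they ran from 96 to 506. At an unadjusted edgeR p of 0.05, members lower in a cells numbered 10 with all libraries and 8 in both fits with 0. How many of all models passed that limit was not counted, so these numbers have no background and are no result about the members. DESeq2 gave 4 members lower in a cells with all libraries, and 417 of all 5162 models tested. A fit with the replicate number as a block gave 2 members higher and 6 lower, and 627 and 586 of all 5042 models. In that fit the chromosome A model at 472961 was no longer called (adjusted p = 0.0501). Deviations of equally numbered a and a/alpha libraries were correlated by 0.09, -0.02 and 0.16, so the numbers were not taken to pair these libraries. For named models, no direction past a threshold was reversed in any alternative, and 32 calls of a against a/alpha were lost in single settings, often with little change in fold. Low depth of a/alpha replicate 1 limits what can be said of members with low levels there.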

Other observations

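Directly downstream of the chromosome G member at 1048341, on the same strand and 337 bp away, a model at 1050736–1052271 was lower in alpha cells. It was chosen after its values were seen. Its normalised counts were 68.5, 107 and 56.2 in alpha cells, 273, 381 and 426 in a cells, and 295, 432 and 436 in a/alpha cells. All 3 alpha libraries lay below all 6 others. The log2 fold change was -2.24 ± 0.26 for alpha against a (edgeR, adjusted p = 1.54e-04) and -2.38 ± 0.26 for alpha against a/alpha (adjusted p = 7.53e-05), and both comparisons share the alpha libraries. Over the alternatives the values ran from -2.55 to -2.05 and from -2.69 to -2.19, with highest adjusted p of 9.80e-04 and 9.21e-04. The cause was not tested.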
